A study of Camellia sinensis with 12 samples.

Results

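The microRNAs described here are the members of miR167 subfamily 1 in Xinyang Maojian (XYMJ) tea plants, listed in the deposited tables as cas-MIR167_1 followed by a member number. They were chosen by their counts. Of the 15 listed MIR167_1 IDs, 7 had at least 10 counts summed over the 12 small RNA libraries, namely cas-MIR167_1-1, cas-MIR167_1-2, cas-MIR167_1-4, cas-MIR167_1-6, cas-MIR167_1-8, cas-MIR167_1-9 and cas-MIR167_1-14. In all, 222 of the 650 listed miRNA IDs reached this minimum. Just inside it was cas-MIR167_1-14, with 11 counts in total, and just outside it were cas-MIR167_1-12, with 9, and cas-MIR167_1-11, with 8. The sum runs over all tissues, so the rule did not use a difference between tissues. The libraries come from field-grown, 3-year-old plants of the variety XYMJ. They represent the bud at the top of the shoot (sBud), the first leaf below it (sL1), the more mature second leaf (sL2) and the stem between both leaves (sS1), with 3 libraries each and no treatment. The replicates are biological samples from tea gardens, and the sources used here do not say how many plants went into each. Counts of miRNAs hold no defining mRNA markers of bud, leaf or stem, so the tissue labels could not be checked in this way.

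miR167 is an ancient plant miRNA family. In Arabidopsis it directs the cleavage of the mRNAs of the auxin response factors ARF6 and ARF8, which switch on genes in response to auxin, and the pair is known for its part in flower maturation and in the formation of adventitious roots. Auxin itself moves down from the shoot tip and young leaves, where it steers the growth of leaves and stems. Members of such a family are close variants of the same mature miRNA. The study names predicted targets of a miR167 member under another naming scheme, which could not be matched to an ID of subfamily 1, and sequences of the members were not analysed here, so the members are ordered below by their abundance.

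Libraries held between 387015 and 746562 counts. Between replicates of a tissue, the chi-square per degree of freedom over the tested IDs was 11.9 to 85.3, above sampling noise, so that none was a copy of another. Levels are given in CPM, the counts scaled to a common library total that is corrected with the TMM factor of edgeR. Where a library shows 0, as many as 3 counts remain possible, which is on average 6.05 CPM for sBud, 7.22 CPM for sL1, 4.44 CPM for sL2 and 5.38 CPM for sS1. This limit covers counting error only, since PCR products are not independent molecules. Differentially expressed miRNAs (DEMs) are those with a log2 fold change beyond 1 in either direction and an unadjusted p under 0.05, from the quasi-likelihood test of edgeR over all 222 tested IDs. The adjusted p is the Benjamini-Hochberg value over these IDs, and SE is the standard error of a log2 fold change. A small RNA read spans the whole miRNA, so levels of different IDs were not scaled by length. Reads that match several members could have been split among them or assigned to 1 of them, since the counting rule is not given in the sources used here, and therefore the split between close members is uncertain.

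Subfamily 1 was a minor part of miR167 in every library. The 7 members together held 1417 counts over the 12 libraries. Their summed level was 254 ± 42.8 CPM in sBud (SD, n = 3), 261 ± 49.3 CPM in sL1 and 262 ± 28.6 CPM in sS1, so these tissues were within the spread between replicates of each other. In sL2 it was 63.4, 276 and 49.7 CPM in replicates 1, 2 and 3. The second of these libraries thus lay among the other tissues, and most of its counts were those of cas-MIR167_1-8. Without this member, the sums in sL2 were 63.4, 69.5 and 27.0 CPM, while the libraries of the other tissues had between 205 and 310 CPM. These sums are a description and were not tested. In such tissue samples, fewer cells of a type and less RNA per cell cannot be told apart.

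**Figure D1:**
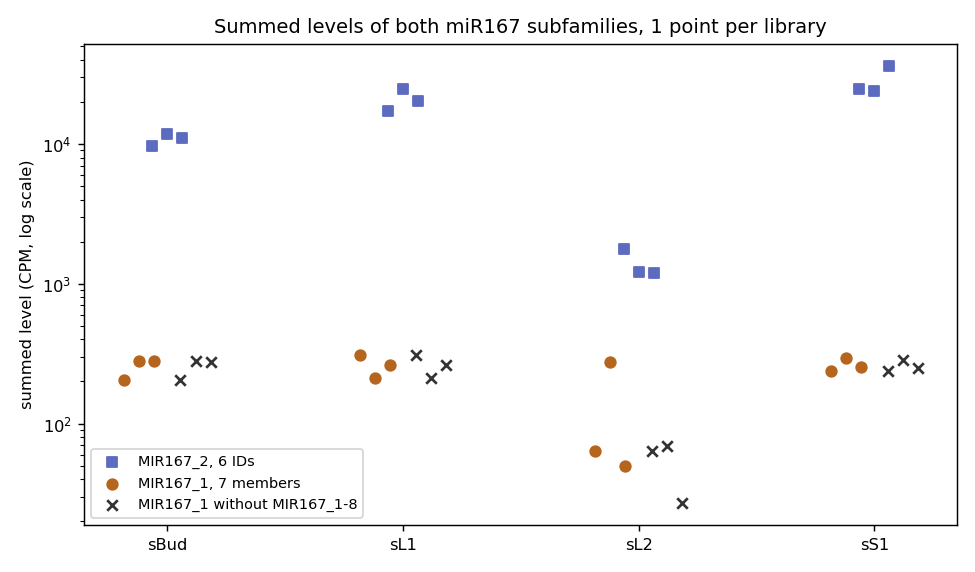
Summed levels in CPM on a log axis, with 1 point per library and tissues along the horizontal axis, for the 6 tested IDs of MIR167_2 (squares), the 7 members of MIR167_1 (circles) and the members without cas-MIR167_1-8 (crosses). The crosses of sL2 lie between 27.0 and 69.5 CPM, below those of all other tissues, and the circle of sL2 replicate 2 at 276 CPM lies among those of the other tissues.

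The most abundant member was cas-MIR167_1-6, with 720 of the 1417 counts. It had 57, 65 and 86 counts in sBud, 97, 57 and 56 in sL1, 38, 38 and 15 in sL2, and 78, 100 and 33 in sS1. In CPM, the sL2 libraries were the lowest, at 57.3, 57.4 and 21.3, and did not overlap with those of any other tissue, while those of sBud, sL1 and sS1 overlapped. In counts, sS1 replicate 3 fell within the range of sL2. Its level was highest in sL1 at 168 ± 60.8 CPM (SD, n = 3), followed by sBud at 138 ± 29.6 CPM, sS1 at 121 ± 52.6 CPM and sL2 at 45.3 ± 20.8 CPM. It was higher than in sL2 in sL1 (log2 fold change 1.89, SE 0.46, edgeR adjusted p = 0.00429), in sBud (1.60, SE 0.46, edgeR adjusted p = 0.0103) and in sS1 (1.42, SE 0.45, edgeR adjusted p = 0.0225). The last of these was no DEM without sS1 replicate 2, where the log2 fold change was 1.05 with an unadjusted p of 0.0577 from edgeR. Among sBud, sL1 and sS1 there was no DEM, with edgeR adjusted p values of 0.771 for sBud vs. sL1, 0.809 for sBud vs. sS1 and 0.638 for sS1 vs. sL1.

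The member with the clearest bud level was cas-MIR167_1-2. It had 33, 35 and 53 counts in sBud, 15, 24 and 14 in sL1, 4, 8 and 4 in sL2, and 18, 19 and 24 in sS1. Every sBud library was above every other library in CPM, every sL2 library was below, and sL1 and sS1 overlapped between them. It averaged 79.7 ± 16.5 CPM in sBud (SD, n = 3), then 41.1 ± 5.81 CPM for sL1, 37.0 ± 11.4 CPM for sS1 and 7.93 ± 3.60 CPM for sL2. The step from sBud to sL1 was 1.94-fold and below the fold threshold (log2 fold change 0.95, SE 0.38, edgeR adjusted p = 0.124), whereas that to sS1 was 2.15-fold and a DEM (1.11, SE 0.38, edgeR adjusted p = 0.0414). With sBud replicate 1, sL1 replicate 2 or sS1 replicate 1 left out, the step to sL1 also became a DEM, at log2 fold changes of 1.13, 1.04 and 1.07. Against sL2 it was 10.05-fold higher in sBud (edgeR adjusted p = 2.84e-05), 5.18-fold higher in sL1 (edgeR adjusted p = 0.000650) and 4.66-fold higher in sS1 (edgeR adjusted p = 0.00115). Between sL1 and sS1 it was no DEM (log2 fold change of sS1 vs. sL1 -0.16, edgeR adjusted p = 0.896).

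In contrast to it, cas-MIR167_1-1 was highest in the stem. It had 36, 29 and 50 counts in sS1, 8, 16 and 12 in sL1, 16, 7 and 12 in sBud, and 0 in all 3 sL2 libraries. The sS1 libraries lay above all others, sL1 and sBud overlapped, and sL2 was below the limit of detection. The mean was 70.2 ± 29.3 CPM in sS1 (SD, n = 3), of which replicate 3 alone had 104 CPM, 28.3 ± 7.95 CPM in sL1 and 22.5 ± 6.24 CPM in sBud. It was 3.12-fold higher in sS1 than in sBud (log2 fold change of sBud vs. sS1 -1.61, SE 0.45, edgeR adjusted p = 0.0176). The difference of sS1 from sL1 was a DEM by its unadjusted p alone (log2 fold change 1.30, SE 0.45, edgeR adjusted p = 0.199), and not without sL1 replicate 1 (unadjusted p = 0.0591 from edgeR) or sS1 replicate 3 (log2 fold change 0.88, unadjusted p = 0.0885 from edgeR). Against the limit of 3 counts per library in sL2, it was at least 15.8-fold higher in sS1, 6.38-fold in sL1 and 5.07-fold in sBud (edgeR adjusted p = 5.69e-06, 3.42e-05 and 6.83e-05). With 1 library left out, these bounds fell to no less than 12.02-fold, 5.73-fold and 4.29-fold.

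The scaled levels of cas-MIR167_1-2 and cas-MIR167_1-1 differed in opposite directions between bud and stem. Their proportion within a library needs no scaling between libraries, and it shows a shift in their balance but not which of them changed. There were 2.06, 5 and 4.42 counts of cas-MIR167_1-2 for each count of cas-MIR167_1-1 in the sBud libraries. The proportion was 1.88, 1.5 and 1.17 in sL1 and 0.5, 0.655 and 0.480 in sS1. The libraries of these tissues did not overlap, with sBud highest and sS1 lowest. This pair was picked after its values were seen, so the proportion is a description and was not tested. In sL2, 16 counts of cas-MIR167_1-2 in total faced none of cas-MIR167_1-1.

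cas-MIR167_1-8 had the reverse pattern and rested on few libraries. Of its 164 counts, 137 fell in sL2 replicate 2 and 16 in sL2 replicate 3, whereas sL2 replicate 1 had none. The other tissues had 0, 0 and 2 counts in sBud, 0 in every sL1 library, and 1, 6 and 2 in sS1. The sL2 libraries therefore overlapped with all other tissues. It was a DEM, higher in sL2, against sBud (edgeR adjusted p = 0.0155), sL1 (edgeR adjusted p = 0.0108) and sS1 (edgeR adjusted p = 0.0439). Per depth, the summed sL2 counts were 57.5 times those of sBud, with a 95% counting interval from 15.7 to 479 (exact Clopper-Pearson), and at least 10.6-fold above the limit of 3 counts in sL1. Without sL2 replicate 2, the latter bound fell to 1.57-fold. The fitted log2 fold change of sBud vs. sL2 then moved from -5.66 to -2.84 (unadjusted p = 0.0918 from edgeR) and that of sS1 vs. sL2 from -3.78 to -0.95 (unadjusted p = 0.476 from edgeR). The call against sS1 was also lost without sS1 replicate 1 (unadjusted p = 0.0624 from edgeR) or sS1 replicate 3 (0.0526). With limma-voom none of the 3 differences was a DEM, with unadjusted p values of 0.113, 0.0720 and 0.353.

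sL2 replicate 2 stood apart in few other IDs. With at least 10 counts there and over 4 times the CPM of each other sL2 library, 4 of the 222 tested IDs were found, and the other libraries had 0 to 3 such IDs. The 4 were cas-MIR167_1-8, cas-MIR167_2-5 with 2, 37 and 3 counts in the sL2 libraries, cas-MIR396-12 with 0, 239 and 58, and cas-MIR396-19 with 4, 949 and 111. miR396 is known in Arabidopsis for restraining growth regulating factors. Both miR396 IDs were also the nearest in pattern to cas-MIR167_1-8 outside miR167, by the Pearson correlation of log2 CPM over 12 libraries (r = 0.95 and 0.88), but over the 9 libraries without sL2 r was 0.69 and 0.22. Outside sL2, cas-MIR396-12 had 1 count in sBud replicate 1, 5 in sS1 replicate 2 and none elsewhere. cas-MIR167_1-8 had 6 counts in sS1 replicate 2, so the r of 0.69 rests on few counts. The part of sL2 replicate 2 in these likenesses was not tested further.

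The remaining members were near the limit of detection. cas-MIR167_1-4 had 2, 4 and 7 counts in sBud, 3, 8 and 3 in sL1, 4, 7 and 5 in sS1, and 0 in all sL2 libraries. Its levels in sBud, sL1 and sS1 overlapped at means of 8.56, 10.5 and 9.60 CPM, with edgeR adjusted p values between 0.872 and 0.936 for the comparisons among them. Against the limit of 3 counts in sL2 the lower bounds were 1.93-fold for sBud, 2.37-fold for sL1 and 2.16-fold for sS1 (edgeR adjusted p = 0.00221, 0.00142 and 0.00166).

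cas-MIR167_1-9 had its highest counts in the stem. There were 14, 5 and 6 counts in sS1, 4, 1 and 6 in sL1, 3, 1 and 2 in sBud, and 0 in all sL2 libraries. It was at least 3.23-fold higher in sS1 than in sL2 (edgeR adjusted p = 0.00149) and at least 2.15-fold higher in sL1 (edgeR adjusted p = 0.00459), and the latter bound was 1.31-fold without sL1 replicate 3. Against sL2 it was also a DEM in sBud (edgeR adjusted p = 0.0233), but no library of either tissue had more than 3 counts, so no fold change is given. The sS1 libraries lay above those of sBud at 3.76 times their mean, a DEM by its unadjusted p (0.0418) and not by the edgeR adjusted p (0.108), which was lost without any 1 of 6 libraries, namely replicates 2 and 3 of sBud, replicates 1 and 3 of sS1, replicate 1 of sL1 and replicate 1 of sL2, at unadjusted p values from 0.0510 to 0.172. It was also lost with RLE factors, library size only, no filter and DESeq2, at unadjusted p values of 0.0509, 0.0630, 0.0656 and 0.146.

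cas-MIR167_1-14 never had more than 3 counts in a library. It had 2, 1 and 1 counts in sL1, 1, 3 and 3 in sS1, and 0 in all libraries of sBud and sL2. No fold change can be given from such counts. It reached the minimum of 10 counts through sL1 and sS1 alone, so lower values in sBud and sL2 were fixed by the filter, and its tests support no difference between tissues. edgeR marked it as a DEM in the comparisons of sL1 and sS1 with sBud and sL2, and DESeq2 called none of these, with unadjusted p values from 0.112 to 0.207. Without sL1 replicate 1, sS1 replicate 2 or sS1 replicate 3 it had fewer than 10 counts and was not tested.

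**Figure D2:**
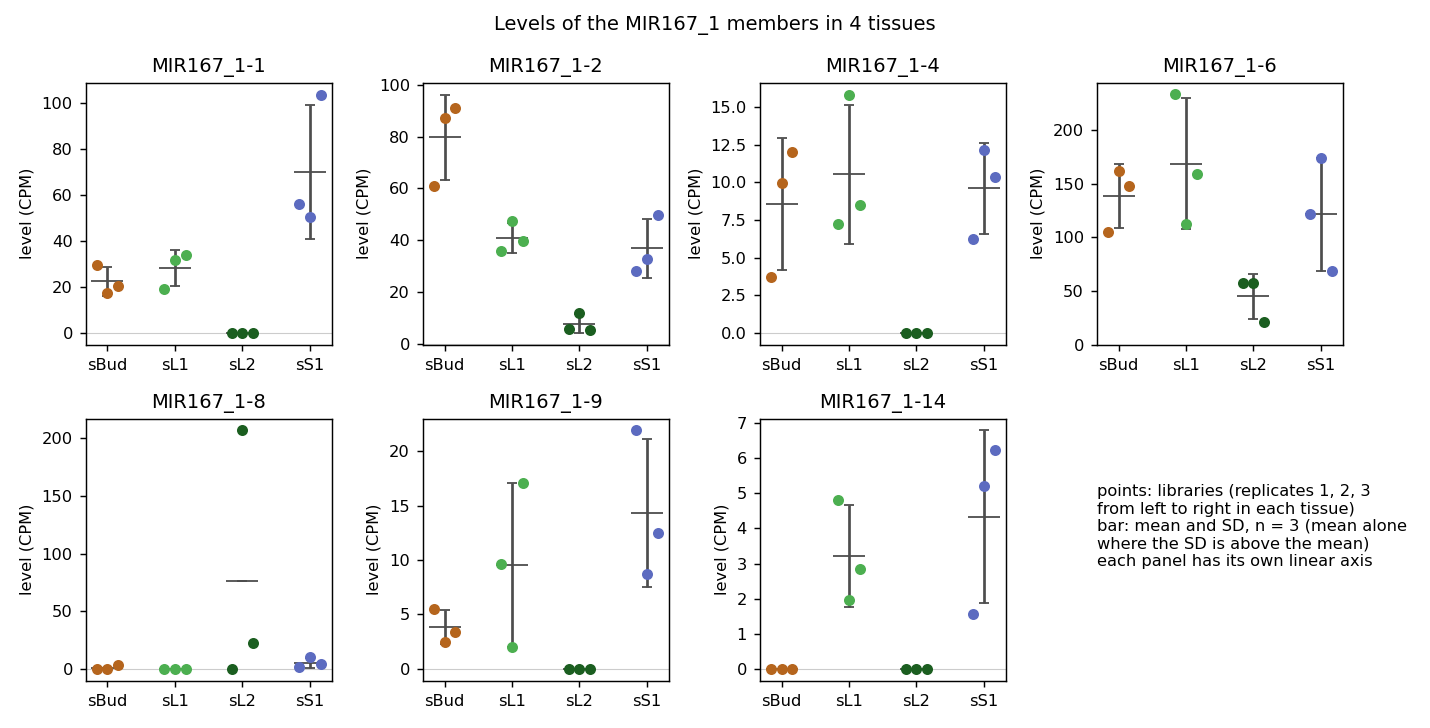
Levels of the 7 members in CPM (vertical axis, linear and separate for each panel) in the 3 libraries of each tissue (points, replicates 1 to 3 from left to right), with the mean and SD (bars, the mean alone where the SD exceeds it). cas-MIR167_1-2 is highest in sBud at 79.7 ± 16.5 CPM, cas-MIR167_1-1 in sS1 at 70.2 ± 29.3 CPM, and cas-MIR167_1-8 stands at 207 CPM in a single sL2 library.

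The comparisons of tissues address how miRNAs differ along the shoot from bud to leaf and stem. When the 4 tissues were tested together, the 6 members other than cas-MIR167_1-14 had an edgeR adjusted p from 2.71e-05 for cas-MIR167_1-1 to 0.0175 for cas-MIR167_1-6, and 53.2% of all tested IDs had one below 0.05. cas-MIR167_1-6 was above this threshold without sL2 replicate 3 (edgeR adjusted p = 0.0660), and cas-MIR167_1-8 without sL2 replicate 2 (0.148) or with limma-voom (0.319). cas-MIR167_1-14 had 0.0370, with the limit from the filter given above. Its value was above the threshold without any 1 of the sL2 libraries or without sL1 replicate 2 or 3 (from 0.0526 to 0.0699), and with library size only (0.0516), the replicate block (0.0983), no filter (0.148) and DESeq2 (0.285).

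Most calls involved the second leaf. In sL1 vs. sL2, 6 members were DEMs with higher levels in sL1, and cas-MIR167_1-8 was the only DEM among them with a higher level in sL2. Among all tested IDs, 19.4% were higher in sL1 and 21.2% higher in sL2. In sS1 vs. sL2, the same 6 members were higher in sS1, against 20.3% of all tested IDs, and cas-MIR167_1-8 was again higher in sL2, against 21.2%. In sBud vs. sL2, 5 members were higher in sBud, against 19.8% of all tested IDs, cas-MIR167_1-8 was higher in sL2, against 23.4%, and cas-MIR167_1-14 had 0 counts in both tissues. With an adjusted p below 0.05, 6, 7 and 6 members remained in sL1 vs. sL2, sS1 vs. sL2 and sBud vs. sL2, and 36.0%, 35.6% and 38.7% of all tested IDs. The libraries did not overlap and were lower in sL2 in 6, 6 and 5 members, and in 26.1%, 25.7% and 24.8% of all tested IDs. The median fitted log2 fold change of the members was 3.88 in sL1 vs. sL2, 4.27 in sS1 vs. sL2 and 3.29 in sBud vs. sL2. The medians of 3.88 and 4.27 are the fitted values of cas-MIR167_1-14, which were fixed in direction by the filter and support no difference. Over the 6, 6 and 5 members with a fold change, and with those at 0 counts set at their bound, the median was 1.57, 1.56 and 1.60. The medians over all tested IDs were 0.11, -0.02 and 0. The 3 comparisons share the sL2 libraries and are not independent of each other. A member that passed the minimum of 10 counts through the other tissues alone had to be lower in sL2, so the counts of members, cas-MIR167_1-14 among them, are a description.

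Between the bud and the stem, there were DEMs in both directions among the members. cas-MIR167_1-2 was a DEM with a higher level in sBud, against 16.2% of all tested IDs, and cas-MIR167_1-1, cas-MIR167_1-9 and cas-MIR167_1-14 were DEMs with higher levels in sS1, against 13.1%. The first 2 named, of the 7 members, held with an adjusted p below 0.05, as did 22.5% of all tested IDs. cas-MIR167_1-9 (edgeR adjusted p = 0.108) and cas-MIR167_1-14 (0.0581) did not, and the latter has the limit from the filter given above. These counts of members are a description. The median log2 fold change was -1.61 over the 7 members, -0.89 over the 6 with a fold change, and 0.06 over all tested IDs.

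The bud, first leaf and stem gave few other calls. In sBud vs. sL1, cas-MIR167_1-14 was the only DEM among the members, higher in sL1, where 9.46% of all tested IDs were higher in sL1 and 9.91% in sBud. None of the members had an adjusted p below 0.05 with edgeR, against 12.6% of all tested IDs. An unadjusted p below 0.05 from edgeR was found for 2 of the 7 members and for 58 of all 222 tested IDs. limma-voom gave 1 member by the adjusted p and DESeq2 gave 0, and the shares of all tested IDs with these tools are not given here. The member called with limma-voom was cas-MIR167_1-14, whose lower values in sBud were fixed by the filter, so this call supports no difference. In sS1 vs. sL1, cas-MIR167_1-1 was the only DEM among the members, higher in sS1, where 4.50% of all tested IDs were higher in sS1 and 2.70% in sL1. By the adjusted p there was none among the members (0 with edgeR, DESeq2 and limma-voom, and 1 member with an unadjusted p below 0.05 in each) and none (0%) among all tested IDs with edgeR. Of all 222 tested IDs, 30 had an unadjusted p below 0.05 with edgeR in this comparison.

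**Figure D3:**
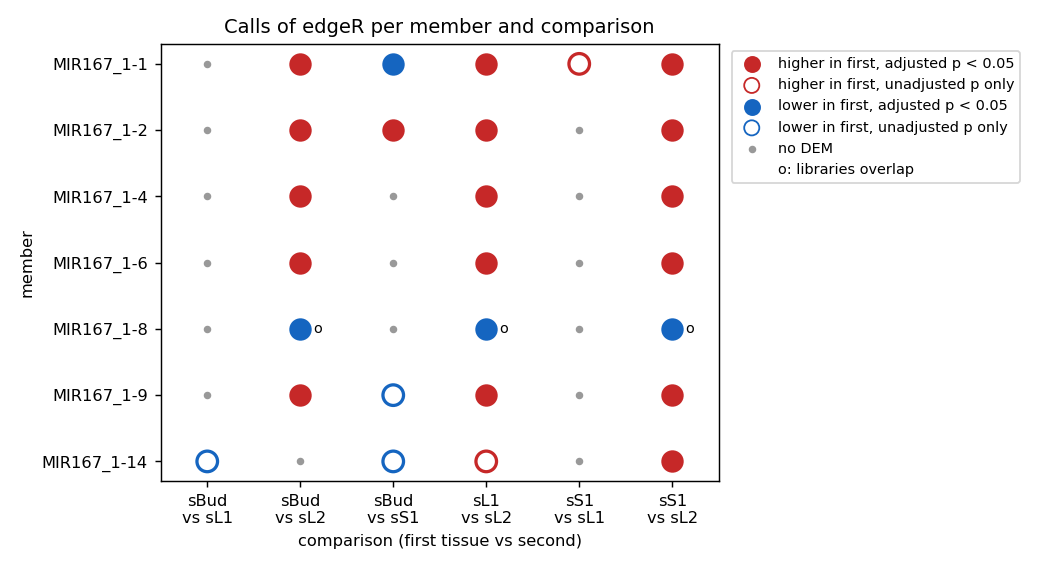
Calls of edgeR for the 7 members (vertical axis) in the 6 comparisons of tissues (horizontal axis), where filled circles are DEMs with an adjusted p below 0.05, open circles are DEMs by the unadjusted p alone, red is higher and blue lower in the tissue named first, and o marks libraries that overlap. The comparisons with sL2 hold 6, 7 and 7 of the calls, those of cas-MIR167_1-8 are blue with overlapping libraries, and sBud vs. sL1 and sS1 vs. sL1 hold 1 call each.

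The makeup of the subfamily also differed between tissues. For each member, its percentage of all MIR167_1 counts in a library was compared over the 4 tissues by permuting the libraries among tissues, with F as the statistic (exact test, two-sided, 369600 arrangements, smallest possible p 6.49e-05, or 0.000649 for the members with many counts of 0), which does not depend on the scaling of libraries. The 7 p values are not adjusted. The percentage of cas-MIR167_1-1 was 9.19 ± 4.33% in sBud (SD, n = 3), 10.96 ± 4.30% for sL1, 26.2 ± 11.4% for sS1 and 0 for sL2 (exact p = 0.00123). That of cas-MIR167_1-2 was 30.7 ± 1.38% in sBud, 15.8 ± 5.10% for sL1, 13.7 ± 4.27% for sS1 and 8.43 ± 3.66% for sL2 (exact p = 0.00357). Its low sL2 value depended on the counts of cas-MIR167_1-8 in the total. With cas-MIR167_1-8 left out, a choice made after seeing the data, it was 15.9 ± 5.85% in sL2 and 15.8% in sL1. In sS1 it was then 13.9% and in sBud 30.8% (exact permutation p = 0.0166). The percentage of cas-MIR167_1-4, which had no counts in sL2, gave an exact p of 0.0294. It was above 0.05 with the replicate number as a block (exact p = 0.0521), and without any 1 of the sL2 libraries, sBud replicate 2, or sS1 replicate 2 or 3, at exact p values from 0.0515 to 0.0915. For cas-MIR167_1-14 the exact p was 0.0156, and 0.0625 with the block, but its counts of 0 in sBud and sL2 follow from the filter and the value supports no difference.

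For the other 3 members the p was above 0.05. cas-MIR167_1-6 was the largest part of the subfamily in most libraries, with 61.1 ± 11.8% in sL1, 53.3 ± 3.76% in sBud, 51.3 ± 35.7% for sL2 and 44.4 ± 16.7% for sS1 (exact p = 0.825, n = 3 each). As a percentage of MIR167_1 and MIR167_2 counts together, it gave an exact p of 0.00162. MIR167_2 held most of that total and had its lowest summed level in sL2, so this value does not describe the makeup of subfamily 1 alone. The wide spread in sL2 came with cas-MIR167_1-8, which made up 0 of 42 MIR167_1 counts in replicate 1 (95% Wilson interval up to 8.38%), 137 of 184 or 74.5% in replicate 2 (67.7% to 80.2%) and 16 of 35 or 45.7% in replicate 3 (30.5% to 61.8%). Its own percentage gave an exact p of 0.0805, and 0.00130 without sL2 replicate 1. When cas-MIR167_1-8 was left out of the total, which was chosen after seeing the data, cas-MIR167_1-6 made up 83.4% of the subfamily in sL2 on average (exact permutation p = 0.0106), and all 6 remaining members had an exact p below 0.05. Among these 6, the value of cas-MIR167_1-14 (exact permutation p = 0.0149) again follows from the filter and supports no difference. cas-MIR167_1-9 gave an exact p of 0.0539, and p values between 0.0268 and 0.0442 without sL1 replicate 2, sL1 replicate 3 or sS1 replicate 2, and 0.0434 with the replicate block.

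**Figure D4:**
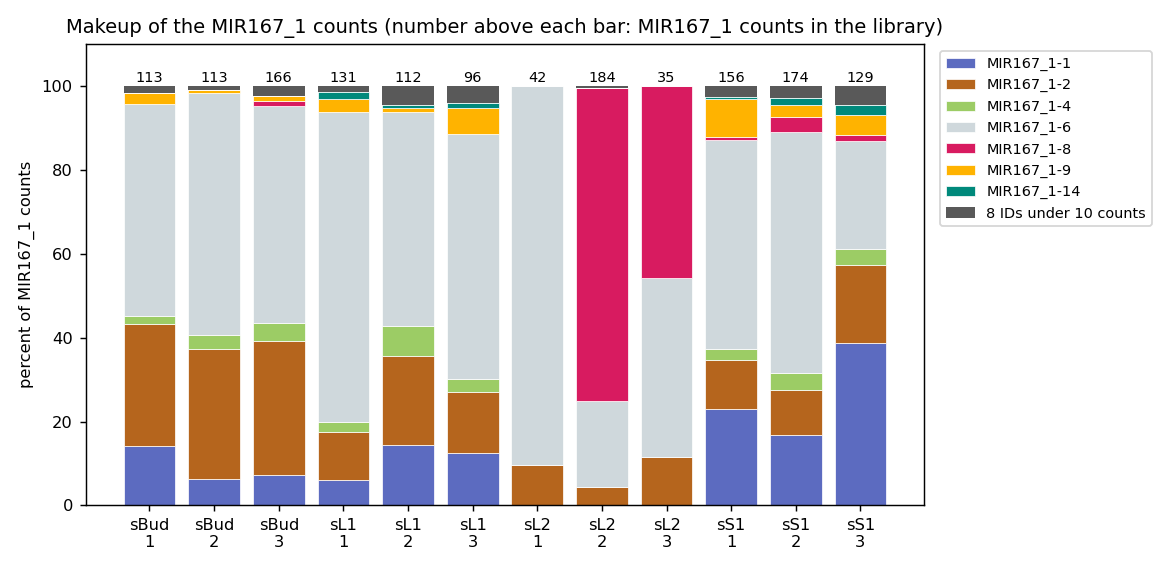
Percentage of all MIR167_1 counts (vertical axis) that each member held in each of the 12 libraries (horizontal axis), with the number of MIR167_1 counts above each bar. cas-MIR167_1-2 takes 30.7% of the sBud bars on average, cas-MIR167_1-1 takes 26.2% of the sS1 bars, and cas-MIR167_1-8 takes 74.5% of the 184 counts in sL2 replicate 2.

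Subfamily 2 of miR167 is the part of the data most like subfamily 1. Of its 9 listed IDs, 6 had at least 10 counts, and their summed level was 10895 ± 1125 CPM in sBud (SD, n = 3), 20791 ± 3826 CPM in sL1, 1391 ± 323 CPM in sL2 and 28335 ± 6915 CPM in sS1. MIR167_1 made up 2.31 ± 0.201% of all miR167 counts in sBud, 1.33 ± 0.455% in sL1 and 0.985 ± 0.259% in sS1. In the sL2 libraries it made up 3.47% (95% Wilson interval 2.58% to 4.65%), 18.6% (16.3% to 21.1%) and 3.995% (2.89% to 5.51%). Both subfamilies had their lowest mean sums in sL2, where the members of subfamily 1 other than cas-MIR167_1-8 had 53.3 ± 23.0 CPM. Between sBud and sS1, on the other hand, the MIR167_2 sum did not overlap and was higher in sS1, while the sum of the members of subfamily 1 overlapped. These sums and percentages were not tested.

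Among single IDs, cas-MIR167_1-1 had its nearest pattern in subfamily 2. Its log2 CPM correlated with that of cas-MIR167_2-3 at r = 0.97 and with that of cas-MIR167_2-2 at r = 0.95 over the 12 libraries, as a description across libraries of shared tissues. Each of these IDs was lowest in sL2, where cas-MIR167_1-1 had 0 counts, and r without sL2 was not calculated for these pairs. cas-MIR167_2-3 reached 8859 ± 2503 CPM in sS1 (SD, n = 3), then 5858 ± 875 CPM for sL1, 3295 ± 341 CPM for sBud and 161 ± 52.6 CPM for sL2, the same order of tissues as cas-MIR167_1-1. cas-MIR167_2-1 was a DEM with a higher level in sS1 than in sBud (log2 fold change of sBud vs. sS1 -2.64, SE 0.30, edgeR adjusted p = 1.41e-05). Against sL2, 6 of the 6 tested IDs of MIR167_2 were DEMs with higher levels in sL1, and 6 with higher levels in sS1. Of all tested IDs these were 19.4% and 20.3%. In sBud vs. sL2, 5 of the 6 were higher in sBud, against 19.8%. As for the members, these counts are a description. No tested ID of MIR167_2 was a DEM with a higher level in sBud than in sS1 (0 of 6, against 16.2% of all tested IDs), and 3 of the 6 were higher in sS1, against 13.1%. Whether the subfamilies differ in this was not tested.

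Outside miR167, among 122 IDs with at least 10 counts per library on average, the nearest patterns to the summed members were those of cas-MIR171_2-1 (r = 0.76), cas-MIR159-9 (0.71), cas-MIR171_2-5 (0.68), cas-MIR172-2 (0.68) and cas-undef-3 (0.67). Over the 9 libraries without sL2, these values were 0.41, 0.22, 0.15, 0.10 and -0.12, all lower than with sL2. cas-MIR167_1-1 was nearest to cas-MIR166-2 (r = 0.92, and 0.82 without sL2) and cas-MIR171_2-5 (0.89 and -0.24). cas-MIR167_1-2 was nearest to cas-MIR159-9 (0.93 and 0.80) and cas-MIR171_2-5 (0.91 and 0.56). cas-MIR167_1-6 was nearest to cas-MIR171_1-17 (0.87 and 0.50) and cas-MIR171_2-1 (0.86 and 0.70).

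Other miRNA families of auxin signalling were set beside the members. In Arabidopsis, miR160 targets repressing auxin response factors, miR390 starts the production of small RNAs from TAS3 that act on further auxin response factors, and miR393 targets the auxin receptors of the TIR1 group. Of the 12 tested IDs of these families, 3 were DEMs with a higher level in sBud than in sL2, against 19.8% of all tested IDs, and cas-MIR390-4 with a lower level, against 23.4%. Of these 3, cas-MIR390-6 had 10 counts in total, with 8 in sBud, 2 in sL1 and 0 in sL2. Its lower value in sL2 was fixed by the filter, so its test (edgeR adjusted p = 0.0795) supports no difference. cas-MIR390-4 was also the DEM among the 12 IDs in sL1 vs. sL2 and in sS1 vs. sL2, higher in sL2 each time, against 21.2% of all tested IDs in both. cas-MIR160-2 reached 820 ± 252 CPM in the bud (SD, n = 3), compared with 367 ± 108 CPM for sL1, 218 ± 12.5 CPM for sL2 and 215 ± 51.9 CPM for sS1, and each of these differences from the bud was a DEM (edgeR adjusted p = 0.0200, 0.000264 and 0.000452). cas-MIR390-1 was also highest in sBud, with 3067 ± 368 CPM against 859 ± 102 CPM in sS1. None of the 3 tested miR393 IDs was a DEM in any comparison (0 with an unadjusted p below 0.05 in edgeR), and the most abundant of them, cas-MIR393-5, had between 27.4 and 51.1 CPM on average in a tissue. The libraries of cas-MIR393-2 were lower in sL2 than in sL1 and sS1 without overlap, at unadjusted p values of 0.0502 and 0.0501 from edgeR. Those of cas-MIR160-2 were lower in sL2 than in sL1 without overlap (log2 fold change 0.75, unadjusted p = 0.0311 from edgeR), below the fold threshold. None of the 12 IDs was a DEM with a lower level in sL2 than in sL1 or sS1 (0 in each comparison), against 19.4% and 20.3% of all tested IDs, and a difference from the members was not tested. The 12 IDs leave out MIR167_2, of which 6 of 6 tested IDs were DEMs lower in sL2 in each of these comparisons.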

How the data were processed

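Small RNAs of sBud, sL1, sL2 and sS1 were sequenced in 12 libraries. The authors removed adaptors, low-quality and short reads and reads of other ncRNA classes, and matched what was left to miRBase plant miRNAs, allowing mismatches. They deposited whole-number counts per miRNA ID for each library, without normalization. Groups and replicate numbers were taken from the deposited titles, since the tissue field says Leaf for all libraries. The labels name an mRNA library kit, whereas the methods describe gel-isolated small RNAs, and this was not resolved. The replicates are biological according to the methods.

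IDs with at least 10 counts in total were tested with edgeR 4.0.16 in R 4.3.3 (TMM, glmQLFit and glmQLFTest, tissue as the only term, Benjamini-Hochberg adjustment over the 222 tested IDs). The authors used DESeq. Percentages within MIR167_1 were compared with exact permutation tests. Patterns were compared with a prior count of 2. Both procedures were tested on simulated data. A fold change against a tissue at 0 counts is a bound from 3 counts per library, and none is given where no library of either tissue exceeded 3. Alternatives tried were RLE factors, library size only, limma-voom (limma 3.58.1), DESeq2 1.42.0, other filters, adjusted p, fits of 2 tissues, the replicate number as a block, removal of the 5 most abundant IDs, equal depth and each library left out. Every member of the list was named, with the MIR167_2 IDs, the miR160, miR390 and miR393 IDs and the IDs of most similar pattern. The members and lists were chosen with earlier results of these data known. Sequences were not used here.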

Additional observations from a re-analysis of the deposited data

How the results depend on the processing

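Counts of members called depended most on members near the limit of detection. The shares of all tested IDs called under each setting are not given here. The counts below therefore only describe how the calls of the members moved. With filterByExpr only 3 members were tested, and all 3 were called in sBud vs. sL2, sL1 vs. sL2, sS1 vs. sL2 and over all tissues, and 2 in sBud vs. sS1. In sBud vs. sL1 the count of 1 became 2 with library size only and 0 with DESeq2, no filter, filterByExpr, the replicate block, the compared tissues alone or the adjusted p. In sBud vs. sS1 the count of 4 became 2 with DESeq2 or the adjusted p. In sS1 vs. sL1 the count of 1 became 2 with no filter or the replicate block, both through cas-MIR167_1-8, and 0 with the adjusted p. With each library left out in turn, the counts ranged from 0 to 2 in sBud vs. sL1, 5 to 6 in sBud vs. sL2, 2 to 4 in sBud vs. sS1, 6 to 7 in sL1 vs. sL2, 0 to 1 in sS1 vs. sL1, 5 to 7 in sS1 vs. sL2, 5 to 7 over all tissues and 3 to 5 for the percentages. The other causes were not tested. The log2 fold change of cas-MIR167_1-4 in sBud vs. sS1, -0.16 and no DEM, was 0.012 with library size only. Differences without a call changed sign when a library was left out, with ranges from -0.45 to 0.038 for cas-MIR167_1-2 in sS1 vs. sL1, -0.70 to 0.10, -0.49 to 0.19 and -0.45 to 0.22 for cas-MIR167_1-4 in sBud vs. sL1, sBud vs. sS1 and sS1 vs. sL1, and -0.54 to 0.062 and -0.081 to 0.62 for cas-MIR167_1-6 in sBud vs. sL1 and sBud vs. sS1. Library size only moved the median of all IDs by up to -0.26 (sS1 vs. sL2). Libraries of the same replicate number showed no sign of deviating together (r above 0.1 in 1 of 18 pairs, and in 5 of 36 pairs of other numbers). With 3 libraries per tissue, this check cannot tell whether equal numbers share a collection. With the replicate block the percentages of 3 members had an exact p below 0.05 in place of 4, with cas-MIR167_1-4 (0.0521) and cas-MIR167_1-14 (0.0625) lost and cas-MIR167_1-9 (0.0434) gained.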

Other observations

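The MIR167_1 IDs under the minimum of 10 counts were in no comparison. Over the 12 libraries, cas-MIR167_1-12 had 9 counts, cas-MIR167_1-11 had 8, cas-MIR167_1-3 had 7 and cas-MIR167_1-7 had 4. None of these 4 IDs had more than 3 counts in a library, the number that a count of 0 allows. All 8 IDs under the minimum together had 34 counts, with 15 of them in sS1, 11 in sL1, 7 in sBud and 1 in sL2.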
